A study of Mus musculus with 8 samples.

Results

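The genes described here are 10 transcripts known from fat cells, read in bulk RNA sequencing of mouse heart: Adipoq, Retn, Cfd, Lep, Plin1, Plin4, Cidec, Cidea, Fabp4 and Ucp1. They were taken by symbol from the deposited table, where all 10 of them were found among 27304 genes. The hearts came from male 129/Sv mice, an inbred strain, given a diet with 0.15% adenine for 13 weeks (the adenine group, which developed chronic kidney disease) or a standard diet for 13 weeks (the control group, titled Sham). Each group had 4 libraries. The tissue was rinsed and frozen after explantation. The labels name the tissue only as heart, give neither the age of the mice nor the chambers or surrounding tissue that were taken, and do not state whether each library is a separate animal. P-values therefore cover the spread among these libraries, part of which may be technical.

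Fat cells store triglyceride in lipid droplets and release hormones. The coat of the droplet is made of perilipins, and proteins of the CIDE family fuse droplets into larger ones. White fat secretes adiponectin, leptin, resistin and adipsin, while brown fat burns fatty acids through the uncoupling protein UCP1. In the mouse heart, fat lies mainly at the base, along the groove between atria and ventricles and on the pericardium, so the amount that comes with a heart can depend on the dissection. Some of these genes also work outside fat: capillary endothelium makes Fabp4, and heart muscle handles fatty acids as its main fuel.

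Total counts ran from 15626620 to 33886385 per library, so that 3 reads, taken as the floor of detection, stood for 0.0955 to 0.183 CPM (read counts scaled to library size, with TMM factors). The floor covers counting error only; the 95% intervals of fold changes below come from the edgeR fit and include the spread between libraries. The 10 cardiomyocyte markers checked summed to 34804 to 58315 CPM in the adenine libraries and 50112 to 62107 CPM in control hearts, as the labelled tissue would have. The lowest sum was in adenine 3, which also had the highest macrophage marker sum, 2676 CPM, with 309 to 471 CPM in the other 3 adenine hearts and 388 to 663 CPM in control hearts.

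None of the 10 genes differed between adenine and control hearts at an adjusted p under 0.05 in edgeR's quasi-likelihood test, which called 0.0398% of the 20093 genes tested higher and 0% lower. All 10 passed the low-count filter. At an unadjusted p under 0.05, 1 of the 10 was higher (Plin4) and none lower, against 10.9% of all genes higher and 6.63% lower. DESeq2 and limma-voom called none of the 10 either, though DESeq2 gave no adjusted p for Ucp1 and Lep. In none of the 10 did the libraries of the diets fail to overlap, whereas 7.29% of all genes tested showed such a gap. The median log2 fold change, adenine minus control, was 0.04 over the 10 genes and 0.05 over all genes tested. In bulk tissue, fewer cells of a type and less RNA per cell cannot be told apart.

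What did vary was the library. Adipoq, Cfd, Retn, Cidec and Plin1 were each highest in control 2 and lowest in control 3, a pattern that 0.936% of all genes tested shared. Between those libraries they differed by 7.35-fold (Retn) to 41.9-fold (Cfd). Among genes averaging 1 CPM or more, 5.80% had a range of 7-fold or more over the 8 libraries. Fabp4, Plin4 and Cidea spanned only 1.82-fold, 2.34-fold and 1.51-fold. The remaining pair, Lep and Ucp1, had few reads in every library, at most 26 (adenine 4) for Lep and 18 (adenine 2 and 4) for Ucp1. The low ends of the ranges of Adipoq and Retn, in control 3, also rest on few reads, 20 and 23. This division was made after the values were seen and is a description.

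**Figure D1:**
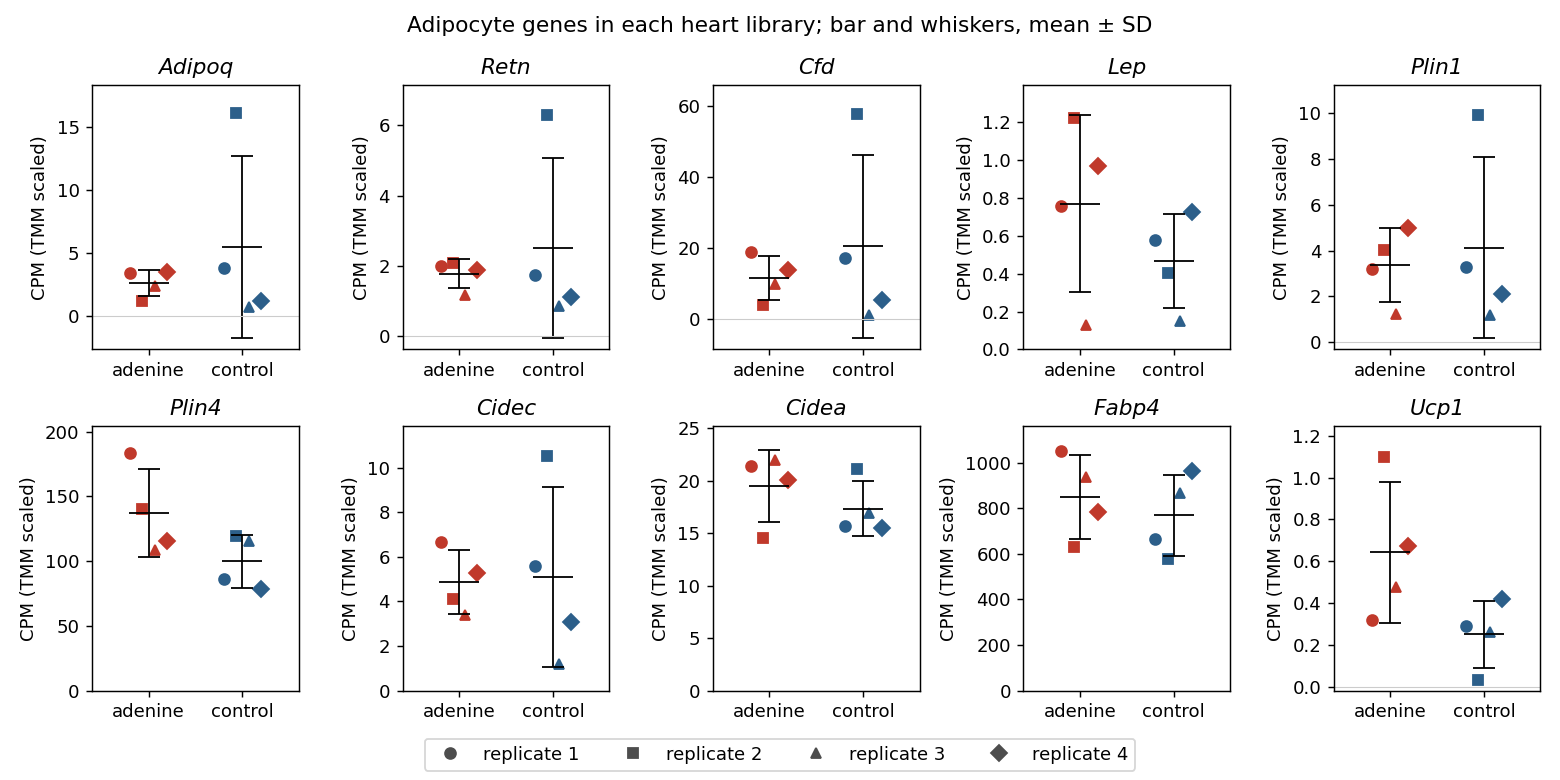
Level of each gene in CPM (linear axes) in the 4 adenine libraries (red, left) and the 4 control libraries (blue, right); symbols give the replicate number, the bar the mean and the whiskers the SD. Control 2 (square) stands far above the other libraries for Adipoq, Retn, Cfd, Plin1 and Cidec, with 16.1 CPM of Adipoq, and the diets overlap in every panel.

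Per length of annotated exons, and averaged over the 8 libraries, Fabp4 had the highest level of the 10, 180 CPM per kb. The annotated exons of Fabp4 together cover its whole span, 4489 bases, introns of spliced transcripts included, which lowers this value. Plin4 had 20.5, Cfd 17.5 and Cidea 16.5 CPM per kb, and the libraries of Cfd, from 1.495 to 62.7, spanned the levels of both neighbours. Adipoq had 2.92, Cidec 2.68, Retn 1.36 and Plin1 0.806 CPM per kb, levels that the range of Adipoq, from 0.540 to 11.7 CPM per kb, also covered. Ucp1 with 0.273 and Lep with 0.184 CPM per kb came last.

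The start regions of 4 genes are shown. Of these, 3 belong to the genes highest in control 2 and lowest in control 3, and 1, Plin4, to those that varied little. They are windows of 250 bases before to 50 after the gene start, from RefSeq on GRCm38.p6, where 8 of the 10 genes had an entry (not Cidea and Fabp4). The windows are chr16:23146286-23146585 for Adipoq and chr10:79890603-79890902 for Cfd, both on the plus strand. Those of Plin1, chr7:79732727-79733026, and Plin4, chr17:56109733-56110032, lie on the minus strand. Capitals mark matches, on either strand, to the CCAAT box (CCAAT), the core of the site for C/EBP factors of adipocyte differentiation (TTGCNNAA), the half-site of nuclear receptors such as PPARG (AGGTCA) and the TATA box (TATAAA).
Adipoq: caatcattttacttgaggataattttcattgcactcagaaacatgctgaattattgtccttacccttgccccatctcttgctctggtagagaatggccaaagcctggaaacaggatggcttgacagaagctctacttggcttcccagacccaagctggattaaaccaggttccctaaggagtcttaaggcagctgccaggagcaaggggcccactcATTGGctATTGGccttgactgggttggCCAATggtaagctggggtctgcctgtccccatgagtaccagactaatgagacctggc
Cfd: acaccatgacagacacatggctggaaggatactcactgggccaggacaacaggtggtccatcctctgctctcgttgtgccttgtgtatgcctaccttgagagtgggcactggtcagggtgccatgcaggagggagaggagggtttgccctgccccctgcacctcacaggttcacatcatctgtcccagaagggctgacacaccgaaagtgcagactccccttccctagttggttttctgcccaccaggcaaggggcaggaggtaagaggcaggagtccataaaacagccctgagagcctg
Plin1: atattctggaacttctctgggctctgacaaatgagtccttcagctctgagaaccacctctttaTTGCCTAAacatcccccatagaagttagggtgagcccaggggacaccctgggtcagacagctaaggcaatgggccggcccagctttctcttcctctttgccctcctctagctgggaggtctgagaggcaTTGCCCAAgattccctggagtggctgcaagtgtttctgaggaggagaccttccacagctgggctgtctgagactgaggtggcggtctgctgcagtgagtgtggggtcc
Plin4: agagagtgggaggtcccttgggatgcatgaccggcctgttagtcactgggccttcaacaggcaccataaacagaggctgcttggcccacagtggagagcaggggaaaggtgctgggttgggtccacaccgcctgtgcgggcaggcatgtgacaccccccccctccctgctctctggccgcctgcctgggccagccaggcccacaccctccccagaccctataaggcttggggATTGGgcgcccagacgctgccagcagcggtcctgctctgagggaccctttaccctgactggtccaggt
The window of Adipoq held 3 CCAAT matches and that of Plin4 held 1, a motif found in 37.4% of all 32851 windows. The window of Plin1 held 2 C/EBP cores, found in 10.8% of all windows. Neither of the other motifs, found in 16.3% (AGGTCA) and 13.6% (TATAAA) of windows, matched in these 4 windows, and none of the 4 motifs matched in that of Cfd. No matches overlapped.

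On GRCm38, per GENCODE, Adipoq (ENSMUSG00000022878) spans 23146536 to 23158028 on chromosome 16 and Cfd (ENSMUSG00000061780) 79890853 to 79892655 on chromosome 10. Cidec (ENSMUSG00000030278) spans 113424634 to 113435760 on chromosome 6, Plin1 (ENSMUSG00000030546) 79720218 to 79732903 on chromosome 7 and Retn (ENSMUSG00000012705) 3655770 to 3660110 on chromosome 8. The 5 genes highest in control 2 and lowest in control 3 thus lie on separate chromosomes. Plin4 (ENSMUSG00000002831) spans 56100591 to 56109803 on chromosome 17 and Fabp4 (ENSMUSG00000062515) 10204088 to 10208576 on chromosome 3. Of the 10 genes, Plin4 alone has exons that overlap those of another gene in this annotation.

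Among the secreted factors, Adipoq encodes adiponectin, a hormone made almost only by fat cells. It had 3.40, 1.22, 2.36 and 3.48 CPM in adenine 1 to 4, against 3.80, 16.1, 0.745 and 1.18 CPM in control 1 to 4. The adenine libraries lay close together and inside the range of the controls, whose highest library had 21.6 times the level of the lowest. The means were 2.61 ± 1.06 CPM in adenine and 5.46 ± 7.22 CPM in control hearts (SD, n = 4 each), and the log2 fold change was -1.05 (SE 0.73, 95% interval -2.64 to 0.53, adjusted p = 0.411 in edgeR). Without control 2 it was 0.46 (SE 0.52).

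Cfd encodes adipsin, or complement factor D, the protease that starts the alternative complement pathway and is secreted in bulk by fat cells. Its levels were 18.8, 4.04, 9.93 and 13.9 CPM in the adenine libraries, against 17.4, 57.8, 1.38 and 5.504 CPM in the controls. Both extremes of the 8 were controls, and control 2 held 10.5 times the median of the other controls. The log2 fold change of -0.81 (SE 0.77, adjusted p = 0.533) became 0.54 (SE 0.63) without control 2.

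Retn encodes resistin, a hormone that in mice comes from fat cells. It had 1.999, 2.08, 1.18 and 1.87 CPM in the adenine libraries and 1.74, 6.30, 0.857 and 1.11 CPM in the controls. Apart from control 2, all libraries lay between 0.857 and 2.08 CPM. Its log2 fold change was -0.50 (SE 0.55, adjusted p = 0.587), or 0.50 (SE 0.37) without control 2.

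Lep, which encodes the satiety hormone leptin of white fat, was covered by 19, 20, 4 and 26 reads in adenine 1 to 4 and by 18, 12, 4 and 19 reads in control 1 to 4. In CPM these were 0.760, 1.22, 0.127 and 0.972 in the adenine libraries, against 0.580, 0.407, 0.149 and 0.726 in the controls. Lep did not follow Adipoq: control 2 was below the middle of the range, and adenine 2 was highest. The log2 fold change was 0.69 (SE 0.65, 95% interval -0.71 to 2.09, adjusted p = 0.528), an interval that includes 0 and, at this depth, large differences in either direction.

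Of the proteins of the lipid droplet, perilipin 1 guards the droplet of fat cells against lipases. Plin1 had 3.20, 4.04, 1.24 and 5.01 CPM in the adenine libraries and 3.29, 9.93, 1.19 and 2.10 CPM in the controls. Control 2 was again highest, but adenine 4 and adenine 2 came next, ahead of control 1, an order that differed from that of Adipoq. The log2 fold change was -0.30 (SE 0.57, adjusted p = 0.756), and 0.59 (SE 0.44) without control 2.

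Cidec, which enlarges droplets in white fat cells, had 6.68, 4.10, 3.41 and 5.27 CPM in the adenine libraries and 5.58, 10.5, 1.19 and 3.06 CPM in the controls. The adenine libraries spread by a factor below that of the controls and lay within them. Its log2 fold change was -0.07 (SE 0.48, adjusted p = 0.944), with a 95% interval from -1.11 to 0.97. That small negative value turned positive with upper-quartile factors (0.13), in limma-voom (0.24) and without control 2 (0.56).

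Cidea, a relative of Cidec that marks brown fat among fat depots, behaved differently. It had 21.4, 14.5, 21.9 and 20.04 CPM in the adenine libraries, against 15.7, 21.1, 16.95 and 15.5 CPM in the controls. No library stood apart, and control 3, which had the least Adipoq, had a Cidea level between those of other controls. The means were 19.5 ± 3.42 CPM in adenine and 17.3 ± 2.60 CPM in control hearts (SD, n = 4 each), with a log2 fold change of 0.17 (SE 0.17, 95% interval -0.19 to 0.53, adjusted p = 0.539).

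Plin4, a perilipin that coats small new droplets in fat and is also known from striated muscle, had the lowest p of the 10. It had 184, 141, 109 and 116 CPM in the adenine libraries, against 86.2, 119, 116 and 78.4 CPM in the controls. The adenine libraries 1 and 2 lay above all controls, and adenine 3 and 4 lay among them. The means were 137 ± 33.9 and 99.9 ± 20.6 CPM in adenine and control hearts (SD, n = 4 each). The log2 fold change of 0.46 (SE 0.20, 95% interval 0.02 to 0.89) did not pass over all genes (unadjusted p = 0.0409, adjusted p = 0.279), and was 0.27 to 0.61 over 18 alternative analyses, with a lowest adjusted p of 0.108, without adenine 3. Exons of Plin4 overlap those of Hdgfl2 on the opposite strand by 17 of 5777 bases.

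Fabp4 encodes the fatty acid carrier of fat cells, macrophages and capillary endothelium. With 1051, 631, 935 and 783 CPM in the adenine libraries, against 665, 578, 867 and 965 CPM in the controls, its libraries overlapped between the diets. It was lowest in control 2, where Adipoq was highest; per length of exon it was still the more abundant there, at 129 against 11.7 CPM per kb. The log2 fold change was 0.14 (SE 0.22, 95% interval -0.34 to 0.63, adjusted p = 0.702). The 10 endothelial markers summed to 586 to 795 CPM in the adenine libraries and 724 to 1001 CPM in control hearts, with 724 CPM in control 2 and the highest sum in control 4. Their part in the level of Fabp4 was not tested.

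Ucp1, the proton channel that makes brown fat produce heat, was covered by 8, 18, 15 and 18 reads in the adenine libraries and by 9, 1, 7 and 11 reads in the controls. The adenine libraries had 0.320, 1.101, 0.478 and 0.673 CPM, the controls 0.290, 0.0339, 0.261 and 0.420 CPM, and adenine 1 lay among the controls. Control 2, with the most Adipoq, had the single read, which is under the floor of 3. The log2 fold change of 1.32 (SE 0.65, 95% interval -0.08 to 2.72) did not pass (unadjusted p = 0.0629, adjusted p = 0.301).

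Reads on genes that heart is not known to use were set beside Ucp1 and Lep. Reads on 1462 olfactory and vomeronasal receptor genes, known from sensory neurons, summed to 663, 2092, 684 and 1305 unscaled CPM in adenine 1 to 4, against 580, 366, 801 and 919 in control 1 to 4. Adenine 2 and adenine 4 had the highest sums and also the highest Ucp1 and Lep, and control 2 had the lowest sum and the lowest Ucp1. Lep parted from the sum elsewhere: adenine 3 and control 3, with sums of 684 and 801, had the fewest Lep reads, 4 each, while control 2 had 12. With this sum as a covariate, chosen after seeing the data, the log2 fold change was 0.52 (SE 0.47) for Ucp1 and 0.07 (SE 0.66) for Lep. Whether the receptor sum accounts for these reads was not tested further.

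**Figure D2:**
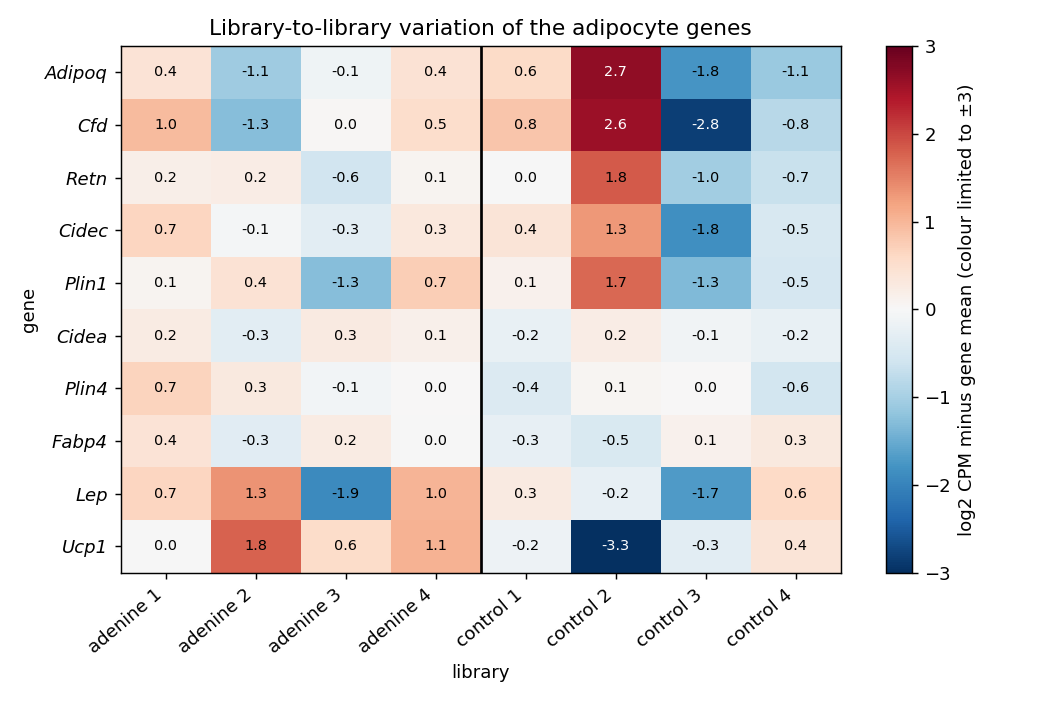
Log2 CPM of each gene minus its mean over the 8 libraries (colour and printed value), adenine libraries left of the line and controls right of it. The top 5 rows share high values in control 2 and low values in control 3, the next 3 rows are nearly flat, and Lep and Ucp1 follow another order, highest in adenine 2.

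The 5 variable genes were next read against Adipoq within each library. The log2 level of Adipoq spanned 4.40 units over the 8 libraries (with 0.5 reads added). The level of Cfd spanned 5.37 units, but its ratio to Adipoq only 1.59, with log2 ratios of 2.06 ± 0.32 in adenine and 1.77 ± 0.62 in control hearts (SD, n = 4 each). Cidec spanned 3.12 units in level and 2.33 in ratio, Retn 2.85 and 2.10, and Plin1 3.04 and 2.61. For the steady genes the ratio spanned more than the level: 4.98 against 0.86 units for Fabp4, 4.36 against 1.23 for Plin4 and 4.08 against 0.60 for Cidea. This follows from the grouping, as these genes were set apart by their narrow levels and Adipoq by its wide one. The ratio of Cfd to Adipoq thus varied far less than the level of either, and Fabp4, Plin4 and Cidea stayed level while Adipoq varied. The genes share library and depth, so these spans are a description.

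**Figure D3:**
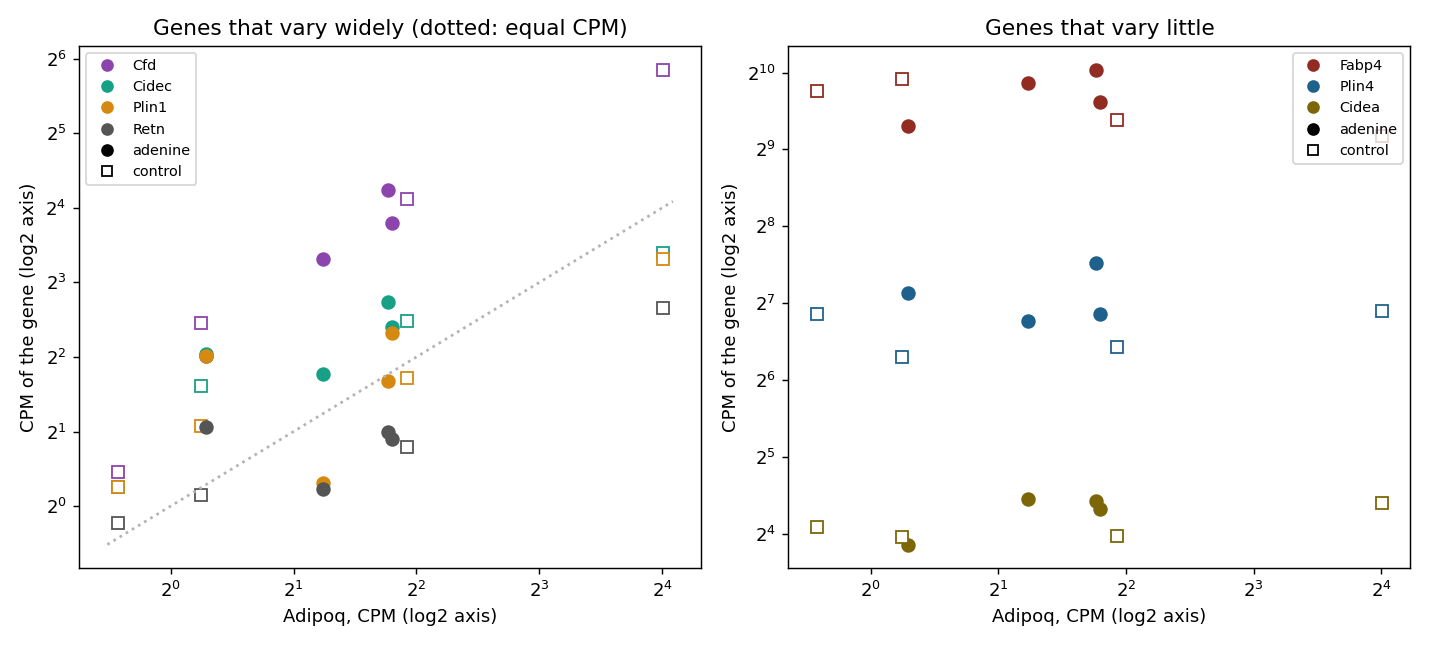
Level of each gene against that of Adipoq in the same library, in CPM on log2 axes; filled circles are adenine and open squares control libraries. Left, Cfd, Cidec, Plin1 and Retn are highest in control 2, where Adipoq reaches 16.1 CPM, and lowest in control 3. Cidec and Plin1 coincide in control 3, at 1.19 CPM. Between these libraries Plin1 and Retn part from Adipoq. Adenine 2, with 1.22 CPM of Adipoq, has 4.04 CPM of Plin1 and 2.08 CPM of Retn. Adenine 3, with 2.36 CPM of Adipoq, has 1.24 and 1.18 CPM. Right, Fabp4, Plin4 and Cidea stay level.

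By a rule of likeness, the 8 genes closest to the profile of Adipoq, Cidec and Plin1 were found among 16014 others that averaged 1 CPM or more. The measure was the mean absolute difference of centred log2 CPM over the 8 libraries. It depends on the size of the swings as well as their order, so genes that swing wider than the profile score as less alike. The 8 genes were Ahsg (0.33 log2 units), Pck1 (0.34), Aif1l (0.38), Ubxn10 (0.38), Arxes2 (0.39), Sds (0.39), Lyve1 (0.40) and Shisa2 (0.40). They were not of 1 known kind: Ahsg, Sds and Pck1 are known from liver, Lyve1 from lymphatic vessels and macrophages and Arxes2 from fat cell differentiation, and of the 8 only Pck1 was on one of the fat lists used here. Ahsg, a plasma protein, had 5.32, 4.89, 3.53 and 8.52 CPM in the adenine libraries and 6.83, 9.69, 3.09 and 3.52 CPM in the controls, with adenine 4 second to control 2. Pck1, which in fat supplies glycerol for triglyceride, had 2.84, 1.28, 1.02 and 1.83 CPM in the adenine libraries and 1.39, 5.73, 0.186 and 0.650 CPM in the controls. Among the 10 genes themselves, Retn, which was not in the profile, had 0.27 units and Cfd 0.59, while Cidea had 0.69, Plin4 0.76 and Fabp4 0.88.

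Other genes of fat biology were read from 6 lists. Of 84 genes tested, none was called higher or lower by edgeR, against 0.0398% and 0% of all genes, and 18 had an unadjusted p under 0.05, as did 10.9% of all genes on the higher side and 6.63% on the lower. Of the 84, 32 were highest in control 2, as were 22.1% of all genes tested. Adipocyte identity genes and factors (20 tested) had a median log2 fold change of 0.20, and 4 of the 20 were highest in control 2. Pparg, the master regulator of fat cells, was even across libraries, at 10.8 to 14.6 CPM in adenine and 9.62 to 12.3 CPM in control hearts. Cebpb and Cebpd, early factors of adipogenesis that also act in inflammation, had log2 fold changes of 1.31 (SE 0.23, adjusted p = 0.0744) and 0.82 (SE 0.24, adjusted p = 0.216). Some other analyses did call Cebpb higher in adenine hearts: its adjusted p was 0.00132 in DESeq2, 0.0218 with upper-quartile factors, 0.0339 without adenine 3, 0.0340 without adenine 4 and 0.00883 with the receptor sum as a covariate, which also called Cebpd (adjusted p = 0.0190). The remaining alternatives, limma-voom among them, did not call Cebpb. In edgeR its adjusted p was 0.242 without adenine 1 and 0.265 without control 1.

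Cebpb was at 15.0 to 31.9 CPM in the adenine libraries and 7.77 to 12.0 CPM in control hearts, without overlap. It was named for the lowest p of its list, and 7.29% of all genes tested showed such a gap. In contrast Car3, a carbonic anhydrase abundant in fat cells and named after its values were seen, had 25.0, 7.40, 11.6 and 14.5 CPM in the adenine libraries and 27.7, 87.9, 2.42 and 6.88 CPM in the controls. It was thus highest in control 2 and lowest in control 3, as Adipoq was, but most genes of its list were not.

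Lipid droplet and lipolysis genes (13 tested) had a median of -0.14, and 5 of the 13 were highest in control 2. G0s2, an inhibitor of triglyceride lipase, had 29.0 to 39.1 CPM in the adenine libraries and 40.1 to 68.6 CPM in control hearts. It was named for the lowest p of its list (log2 fold change -0.66, SE 0.18, adjusted p = 0.196). The diets did not overlap, as in 7.29% of all genes tested. Aqp7, a glycerol channel of fat and capillaries, had -0.68 (SE 0.23, adjusted p = 0.242).

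Genes of lipogenesis (16 tested) had a median of -0.23, and 11 of the 16 were highest in control 2. Scd1, which desaturates fatty acids, had 25.1, 9.11, 14.0 and 20.97 CPM in the adenine libraries and 42.5, 118, 16.5 and 14.7 CPM in the controls. Its log2 fold change of -1.47 (SE 0.56, adjusted p = 0.262) was -0.50 without control 2. Scd2, a second desaturase, had -0.88 (SE 0.26, adjusted p = 0.218).

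Brown and beige fat genes (20 tested) had a median of 0.18, and 6 of the 20 were highest in control 2. Zic1, a developmental factor of brown fat, had 1.11 to 4.22 CPM in the adenine libraries and 0.677 to 0.955 CPM in control hearts (log2 fold change 1.40, SE 0.46, adjusted p = 0.231), or 0.58 with the receptor sum as a covariate. It was highest in adenine 2, as Ucp1 and Lep were. Cox7a1, a respiratory chain subunit of heart and brown fat, had -0.52 (SE 0.20, adjusted p = 0.264).

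Receptors of adipokines (6 tested) had a median of -0.18, and 4 of the 6 were highest in control 2. Cdh13, which binds adiponectin, had 64.1 to 101 CPM in the adenine libraries and 108 to 133 CPM in control hearts. It was named for the lowest p of its list (log2 fold change -0.53, SE 0.17, adjusted p = 0.228). The diets did not overlap, as in 7.29% of all genes tested. The leptin receptor gene Lepr had -0.72 (SE 0.30, adjusted p = 0.274), or -0.38 without control 2. Genes of fatty acid uptake (9 tested) had a median of 0.03, or 0.17 with upper-quartile factors, and 2 of the 9 were highest in control 2. Among them Angptl4, an inhibitor of lipoprotein lipase, had 0.56 (SE 0.35, adjusted p = 0.373) and Gpihbp1, which holds that lipase in capillaries, 0.26 (SE 0.24, adjusted p = 0.518).

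Markers of other tissue that can come with a heart were set beside these levels. The 5 atrial genes were all highest in control 2, where they summed to 4148 CPM, against 56.5 to 492 CPM in the other controls and 388, 13.8, 528 and 24.6 CPM in adenine 1 to 4. Control 2 thus led in all 5 atrial genes and in 5 of the 10 fat genes, but the order of the atrial sum parted from that of Adipoq elsewhere: adenine 4 had 24.6 CPM of atrial genes with 3.48 CPM of Adipoq, and adenine 3 had 528 CPM with 2.36 CPM. The atrial genes with the lowest p were Bmp10, a growth factor of the atria, with a log2 fold change of -2.48 (SE 1.07, adjusted p = 0.276), or 0.31 without control 2, and Dkk3 with -1.49 (SE 0.66, adjusted p = 0.279), or -0.40 without control 2.

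The 10 markers of mesothelium, the covering of the heart and pericardium, summed to 20.5 to 35.8 CPM in adenine and 17.1 to 44.4 CPM in control hearts. The sum was highest in control 2 and lowest in control 3. Of the 10 markers, 5 were highest in control 2, as were 22.1% of all genes tested. Wt1 (4.84 CPM) and Muc16 (3.29 CPM) were instead lowest there. The markers with the lowest p went opposite ways. Krt18, an epithelial keratin, had 2.80, 1.71, 14.0 and 3.70 CPM in the adenine libraries, against 2.06, 2.61, 2.09 and 2.60 CPM in the controls. Its highest library was adenine 3, and its log2 fold change of 1.26 (SE 0.52, adjusted p = 0.271) was 0.23 without that library. Upk3b, a mesothelial surface protein, had 2.56, 3.36, 2.52 and 2.54 CPM in the adenine libraries, against 5.22, 16.5, 1.45 and 3.36 CPM in the controls. Its log2 fold change of -1.28 (SE 0.55, adjusted p = 0.274) was -0.30 without control 2. None of the 10 markers was at 0 in all libraries.

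Blood markers took another course, with 1660 to 3085 CPM in the adenine libraries and 7008 to 26049 CPM in control hearts, highest in control 1 and lowest of the controls in control 2. The part of atrial, mesothelial or blood material in the levels of the fat genes was not tested. None of the 75 genes tested in the lists of other tissues was called by edgeR. DESeq2 called 6 of them lower in adenine hearts and 1 higher, while over all genes it called 175 lower and 153 higher. Lower were the endothelial genes Tek (adjusted p = 0.0075) and Cldn5 (0.00916) and the red cell genes Hba-a1 (0.00955), Hba-a2 (0.00842), Hbb-bt (0.0289) and Alas2 (0.0220). Higher was the lung gene Ager (0.0198).

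**Figure D4:**
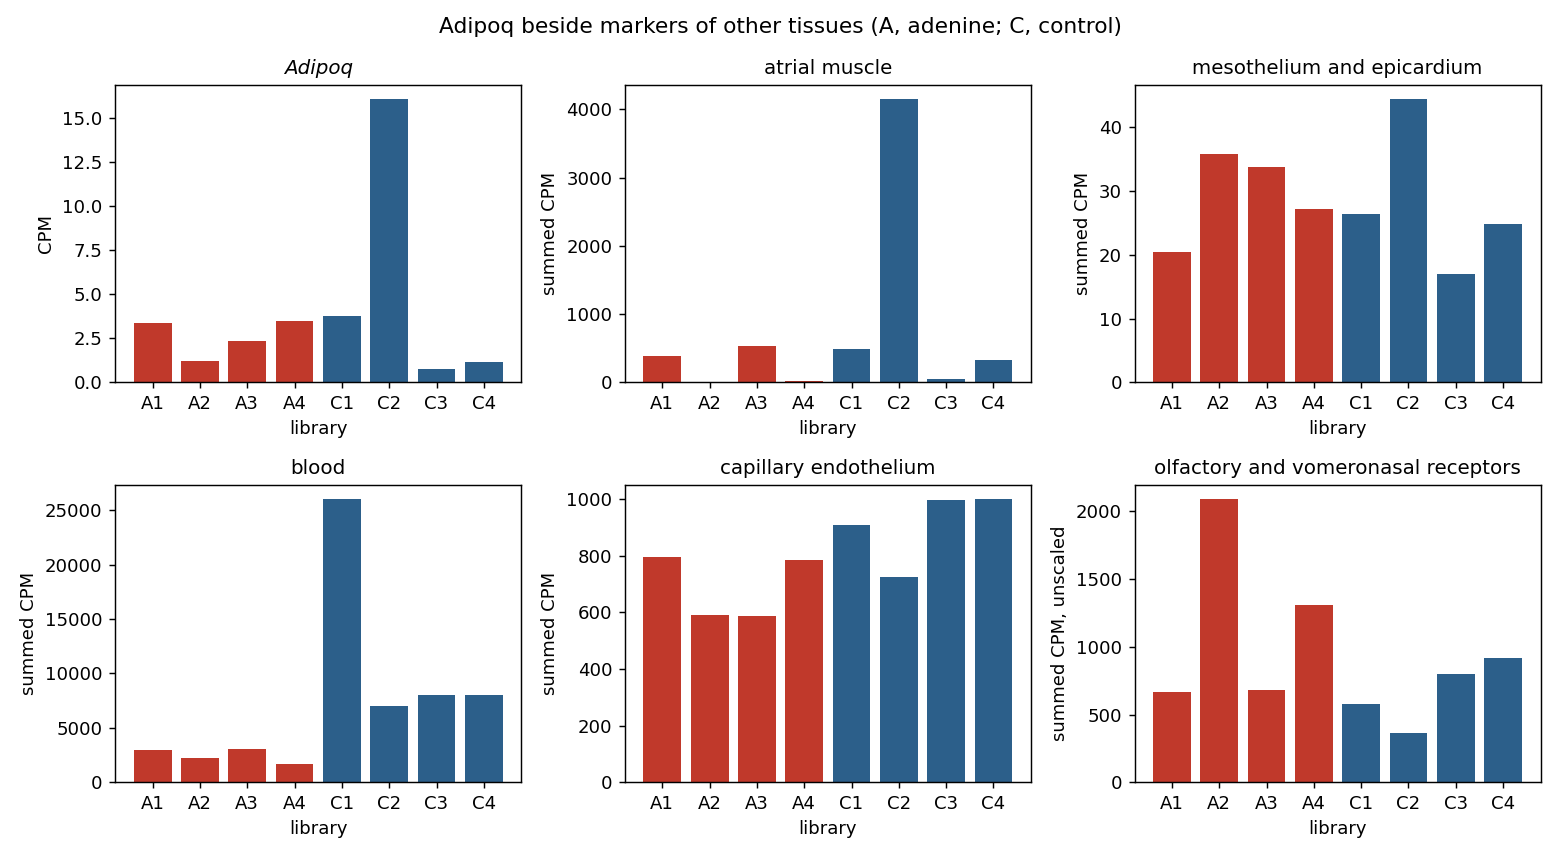
Adipoq in CPM beside summed CPM of marker lists and the unscaled receptor sum (linear axes, bars from 0) in adenine 1 to 4 (A1 to A4, red) and control 1 to 4 (C1 to C4, blue). Control 2 is highest for Adipoq, atrial muscle (4148 CPM) and mesothelium, control 1 for blood, and adenine 2 for the receptors.

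Leaving out control 2 changed the direction of all 5 variable genes and of no other of the 10. These 5 genes were grouped after the values were seen, each being highest in control 2. A rise of their fold changes without that library therefore follows from the grouping. With all libraries their log2 fold changes, adenine minus control, ran from -1.05 (Adipoq) to -0.07 (Cidec); without control 2 they ran from 0.46 (Adipoq) to 0.59 (Plin1). The median over the 10 genes was 0.54 without that library. The adjusted p-values of the 5 variable genes without it were 0.618 to 0.743 in edgeR. The direction of these 5 genes turned with the receptor sum as a covariate too. That sum was lowest in control 2, at 366 unscaled CPM, so this setting is not independent of leaving out that library. Cidea, Plin4, Fabp4, Lep and Ucp1 had positive values with and without control 2.

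**Figure D5:**
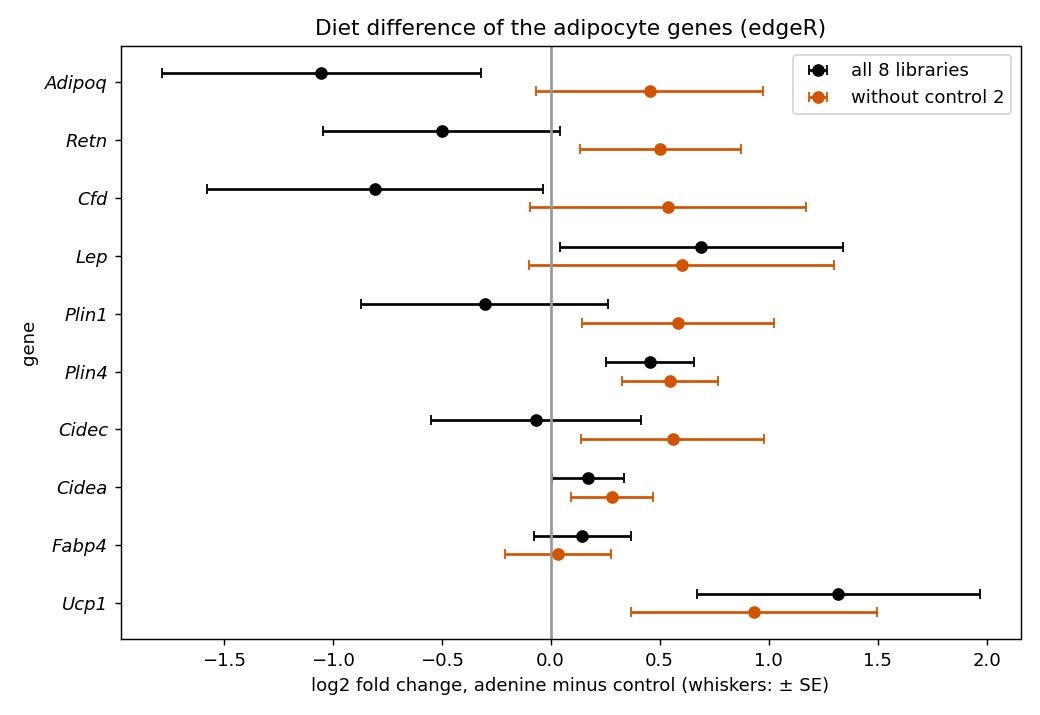
Log2 fold change of each gene, adenine minus control, with all 8 libraries (black) and without control 2 (orange); points are edgeR estimates and whiskers ± SE. Adipoq, Retn, Cfd, Plin1 and Cidec lie left of 0 with all libraries and right of it without control 2, and the other 5 genes stay on the right. The genes that cross 0 are those grouped as highest in control 2.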

How the data were processed

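Per the labels' protocols, heart RNA was extracted with peqGOLD TriFast and sequenced from NEBNext Ultra libraries. STAR 2.7.6a, FastQC 0.11.9 and the genome build GRCm38.p6 appear in the submitters' processing notes. The counting program, strand setting, filter and annotation were among the steps not given in the sources used here. Deposited values are raw counts that the authors left unscaled; 991 of the genes listed had no read. Replicates of a group differed by more than sampling noise (chi-square per gene 20.01 to 96.8), so none was the same library deposited again; this does not show whether they are separate animals.

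The main test was that of edgeR 4.0.16 (R 4.3.3): default filter by group, TMM factors, quasi-likelihood F-test of the diet, standard errors from the F statistic and Benjamini-Hochberg adjustment over 20093 genes, with adjusted p under 0.05 as a call. DESeq2 1.42.0 and limma 3.58.1 (voom) were run on the same filtered genes. On simulated counts with 200 changed genes among 19603, edgeR recovered 55% of changes of 1 log2 unit and 88% of 2, with 9 false calls among 152. The changed genes were drawn from those averaging 1 CPM or more, which leaves out Lep and Ucp1. These shares are averages and do not give the power for the 5 variable genes, whose SEs ran from 0.48 (Cidec) to 0.77 (Cfd). Exon lengths and overlaps came from GENCODE (GRCm38), which matched 27275 identifiers.

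The 10 genes and the 16 gene lists were chosen with earlier results of these data known. Named were all 10 genes, per list up to 4 called genes or otherwise the 2 with the lowest p, and the 8 genes most alike in profile. Pparg, Car3, Wt1, Muc16, Hbb-bt and Alas2 were named after their values were seen. List results are counts and medians, with no set test. Alternatives were other scaling factors, filters and tests, removal of mitochondrial genes, each library left out and the replicate number as a block; the receptor sum as a covariate was added after seeing the data.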

Additional observations from a re-analysis of the deposited data

Results flagged for a closer look

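Retn in control 2, at 6.30 CPM, stood apart from the other controls, the nearest of which had 1.74 CPM. The gap took 0.838 of the range of the 4 controls, above the critical value of 0.829. It was the 1 value so marked among 20 groups examined (10 genes in each diet), and chance marks about 1 group in 20. The cause was not tested.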

How the results depend on the processing

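None of the 10 genes was called under any of 18 alternatives in which it had an adjusted p. Over all genes edgeR called 8 higher and 0 lower (1333 lower at an unadjusted p under 0.05). The counts were 18 and 1 with upper-quartile factors, 153 and 175 in DESeq2, 5 and 0 in limma-voom, 6 lower in robust edgeR, 1 lower with no filter, and 20 and 2 with the receptor sum as a covariate. Leaving out 1 library gave 1 to 37 higher and 0 to 30 lower, 37 and 30 without adenine 3. Leaving out 1 library put the median log2 fold change of the 10 genes between -0.13 and 0.54, the highest without control 2. Upper-quartile factors moved the median over all genes to 0.20, against 0.05.

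Over libraries left out, log2 fold changes ran from -1.39 to 0.46 for Adipoq, -0.38 to 0.56 for Cidec, -0.62 to 0.59 for Plin1, -0.78 to 0.50 for Retn, -1.16 to 0.54 for Cfd, -3.05 to 0.31 for Bmp10, -0.15 to 2.01 for Lyz2 and -0.12 to 1.42 for Fcgr1. Without control 2 the direction turned for Adipoq (0.46), Cidec (0.56), Plin1 (0.59), Retn (0.50), Cfd (0.54) and Bmp10 (0.31). With the receptor sum as a covariate it turned for Adipoq (0.85), Cidec (0.69), Plin1 (0.25), Retn (0.30) and Cfd (1.16). Cidec also turned with upper-quartile factors (0.13), limma-voom (0.24), a filter of 1 CPM in 4 libraries (0.024) and without adenine 2 (0.00275) or adenine 3 (0.06), and Cfd in limma-voom (0.15). The macrophage genes Lyz2 (-0.15) and Fcgr1 (-0.12) turned without adenine 3. The cause was not tested.

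With the replicate number as a block, 16 genes were called higher and 16 lower, and Cidec (0.29) and Cfd (0.29) turned. The numbers share no stated origin, same-numbered libraries correlated at 0.09, -0.50, -0.16 and 0.30 in their deviations, and 1 of 4 adenine libraries correlated best with its own number. The block called 4 genes of the other-tissue lists lower, Cldn5 (adjusted p = 0.0427), Hba-a1 (0.0396), Hba-a2 (0.0383) and Alas2 (0.0383). Hba-a1, Hba-a2, Hbb-bt and Alas2 were also called lower without adenine 3 (0.0204 to 0.0263), and Cldn5 without adenine 4 (0.0233). Depth limits Ucp1 and Lep, which the filter of 1 CPM in 4 libraries removed and for which DESeq2 gave no adjusted p.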

Other observations

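Lung epithelium markers, read as a check for other chest tissue, summed to 11.5 to 15.0 CPM in the adenine libraries and 3.46 to 7.91 CPM in control hearts, without overlap. All 5 of the 8 markers that could be tested had positive log2 fold changes, as did 10897 of the 20093 genes tested. Their median was 1.09, or 0.53 with the receptor sum as a covariate. Ager, an alveolar type I receptor, had 3.42 to 4.20 CPM in the adenine libraries and 1.19 to 2.37 CPM in control hearts (adjusted p = 0.175 in edgeR, 0.0198 in DESeq2), and Napsa, an alveolar protease, 1.38 to 5.16 and 0.610 to 1.38 CPM (adjusted p = 0.237). The log2 fold change of Napsa, 1.31 with all libraries, was 0.75 without adenine 3. Thymus markers summed to 7.07 to 22.5 CPM in adenine and 4.81 to 12.5 CPM in control hearts. The sums of both lists, like the receptor sum, were highest in adenine 2 and lowest in control 2, where Adipoq was highest.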
